A study of Mus musculus with 15 samples.

Results

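Igf2, Cdkn1c, Grb10, Peg3, Plagl1, Mest and Igf2r are imprinted genes of fetal growth, each read mainly from the copy inherited from 1 parent. They were followed across 4 genotypes of TER119-positive cells of the mouse fetal liver. The members were taken by gene symbol from a list of 8, without using their levels. Of the 8, 7 had a transcript cluster (the array's unit of measurement) of their own, among 19938 genes with 1. No cluster carried H19 as its only symbol, so H19 is not analysed here.

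RNA was measured on 15 Affymetrix arrays, 1 per sample, from cells selected with magnetic beads against TER119, a surface antigen of maturing red cells. All embryos were FVB/NJ at stage E13.5. The groups were 4 samples of genotype Klf3-/- Klf8gt/gt (doubly mutant, DKO in the plots), 3 of Klf3-/- (Klf3KO), 4 of Klf8gt/gt, which carry a gene trap in Klf8 (Klf8gt), and 4 wild type (WT). Neither the litter of each array nor whether an array is 1 embryo or a pool is given, so p-values speak only of the scatter among these arrays, part of which may be technical. Values are log2 signals without a detection call, so levels of different genes cannot be ranked. The array medians lay between 6.28 and 6.41, well below the 7 members, and correlations between arrays ran from 0.974 to 0.992. Klf3 signal was 11.06 to 11.73 in doubly mutant, 11.16 to 11.40 in Klf3-/-, 10.21 to 10.30 in Klf8gt/gt and 10.12 to 10.51 in wild-type arrays, so this cluster does not check the Klf3 labels. Klf8 signal was 6.85 to 8.04 in doubly mutant, 8.42 to 8.89 in Klf3-/-, 5.27 to 5.48 in Klf8gt/gt and 5.13 to 5.55 in wild-type arrays. It set both Klf3-/- groups apart from the other 2, but it was not lower in Klf8gt/gt than in wild-type arrays, where it lay below the array medians, so the label of that group is unchecked. Y-linked genes were high on 2 of 4 doubly mutant, 1 of 3 Klf3-/-, 2 of 4 Klf8gt/gt and 4 of 4 wild-type arrays. With sex as a covariate 0 members passed in any comparison, where 0% to 2.98% of all clusters passed.

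The TER119 label was checked against cell type markers. Of 20 erythroid markers 17 were measured, and all 17 averaged above the array medians. All 21 measured hepatocyte markers of 23 listed did so too, as did 14 of 15 macrophage markers. So did all 12 mesenchymal, all 10 endothelial and all 6 measured megakaryocyte markers, 7 of 10 progenitor markers and 5 of 10 myeloid markers. Over all clusters tested, 12745 of 23410 lay above the array medians. Mean signals ran from 6.88 (Foxa2) to 14.09 (Afp) among the hepatocyte markers. Among the erythroid markers they ran from 10.03 (Tal1) to 13.77 (Slc4a1). Alb and Afp, plasma proteins of liver cells with the highest mean signals of their list, reached at least 13.56 and 13.66 on every array. Slc4a1 reached at least 13.56. The mean log2 signal of the hepatocyte markers, called the hepatocyte score, was 11.51 ± 0.58 in doubly mutant (SD, n = 4), 11.75 ± 0.15 in Klf3-/- (n = 3), 12.07 ± 0.30 in Klf8gt/gt (n = 4) and 11.47 ± 0.18 in wild-type arrays (n = 4). Doubly mutant replicate 1 (10.64, against 11.73 to 11.86 on the other 3) and Klf8gt/gt replicate 1 (11.64, against 12.16 to 12.32) stood apart from their groups. Results that rest on these arrays are given with and without both where both were computed. In bulk RNA, fewer cells of a type and less RNA per cell cannot be told apart.

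IGF2 is a secreted growth factor that acts through the type 1 IGF receptor and the insulin receptor. IGF2R is not a signalling receptor for it in the main but carries it to lysosomes for destruction, and GRB10 dampens signalling at the receptors from within. CDKN1C, also known as p57Kip2, is a cyclin-dependent kinase inhibitor. PLAGL1 (ZAC1) and PEG3 are zinc finger factors, and MEST is a hydrolase-like protein of the endoplasmic reticulum. In mouse most tissues express Igf2, Peg3, Plagl1 and Mest from the paternal copy, and Cdkn1c, Igf2r and, outside the brain, Grb10 from the maternal copy. The fetal liver is a known site of strong Igf2 expression, mainly in its hepatoblasts. KLF3 and KLF8 are repressors of the Kruppel-like family, whose zinc fingers bind CACCC-type motifs.

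Start-site windows of the members were searched for CACCC, also as its reverse complement GGGTG. RefSeq gave 12 windows for 6 of the members on GRCm38.p6, each 300 bases long with 250 before and 50 after the start. The motif was present in 7 of 12 (58.3%), against 57.5% of all 32851 such windows, and 3 or more copies stood in 3 of 12 (25%), against 9.35% of all. The windows below, 1 of 4 of Igf2, 1 of 2 of Grb10 and the 1 of Igf2r, are shown because these genes correlated at 0.93 or above with each other over the arrays and each window holds the motif. All 3 genes lie on the minus strand, and the windows are printed 5′ to 3′ along the gene, with each CACCC or GGGTG in capitals. The Igf2 window is chr7:142658755-142659054, the Grb10 window chr11:12027922-12028221 and the Igf2r window chr17:12769657-12769956.
Igf2: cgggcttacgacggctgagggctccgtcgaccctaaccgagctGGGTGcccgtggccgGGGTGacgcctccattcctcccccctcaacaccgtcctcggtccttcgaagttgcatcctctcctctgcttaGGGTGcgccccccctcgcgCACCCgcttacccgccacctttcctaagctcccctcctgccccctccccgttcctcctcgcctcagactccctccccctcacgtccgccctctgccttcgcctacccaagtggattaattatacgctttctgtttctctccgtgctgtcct
Grb10: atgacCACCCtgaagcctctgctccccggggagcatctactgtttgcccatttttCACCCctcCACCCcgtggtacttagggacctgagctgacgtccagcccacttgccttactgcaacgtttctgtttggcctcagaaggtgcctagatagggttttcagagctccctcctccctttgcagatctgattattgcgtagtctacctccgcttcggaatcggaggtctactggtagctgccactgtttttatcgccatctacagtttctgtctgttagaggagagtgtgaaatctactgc
Igf2r: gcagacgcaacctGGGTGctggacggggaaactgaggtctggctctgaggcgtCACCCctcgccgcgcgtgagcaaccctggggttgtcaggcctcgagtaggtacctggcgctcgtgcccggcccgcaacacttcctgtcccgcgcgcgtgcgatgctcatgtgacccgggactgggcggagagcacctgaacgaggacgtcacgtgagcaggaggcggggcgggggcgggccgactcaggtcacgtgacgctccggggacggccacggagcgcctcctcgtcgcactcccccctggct
The Igf2 window held 4 copies, 1 as CACCC, the Grb10 window 3, all as CACCC, and the Igf2r window 2, 1 as CACCC. A match describes letters only and shows no binding. Of the other windows, those of Igf2 held 1, 0 and 4 copies, that of Grb10 held 2 and that of Peg3 held 2. Those of Plagl1 and Mest held 0 copies. No other window of Igf2 or Grb10 held more copies than the printed one. The windows with 3 or more copies all belonged to Igf2 and Grb10. Mest windows 2 and 3 overlap almost wholly but were counted apart.

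Signals of the 7 members, the ligand first, were not called different between genotypes. Igf2 was 11.74, 12.40, 12.48 and 12.76 in doubly mutant arrays, 12.39, 12.34 and 12.55 in Klf3-/-, 12.24, 12.76, 12.68 and 12.66 in Klf8gt/gt, and 12.12, 11.98, 12.14 and 12.40 in wild-type arrays. The groups overlapped, and the lowest signal of the 15 was that of doubly mutant replicate 1. Igf2 averaged 12.35 ± 0.43 in doubly mutant (SD, n = 4), 12.43 ± 0.11 in Klf3-/- (n = 3), 12.58 ± 0.23 in Klf8gt/gt (n = 4) and 12.16 ± 0.18 in wild-type arrays (n = 4). The log2 difference from wild type was 0.19 ± 0.17 (SE) in doubly mutant, 0.27 ± 0.19 in Klf3-/- and 0.43 ± 0.17 in Klf8gt/gt arrays (adjusted p = 0.645, 0.766 and 0.324 in limma).

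Igf2r, the clearance receptor, was 10.12, 10.90, 11.68 and 11.50 in doubly mutant arrays, 10.93, 10.88 and 11.28 in Klf3-/-, 10.51, 11.48, 11.29 and 11.25 in Klf8gt/gt, and 10.42, 10.31, 10.46 and 10.87 in wild-type arrays. Klf3-/- arrays all lay above wild type, though the lowest of them cleared the highest wild-type array by 0.01 after rounding, while the other 2 mutant groups overlapped it. Group means were 11.05 ± 0.71 in doubly mutant, 11.03 ± 0.22 in Klf3-/-, 11.13 ± 0.42 in Klf8gt/gt and 10.52 ± 0.24 in wild-type arrays. The difference from wild type was 0.53 ± 0.28 in doubly mutant (95% interval -0.06 to 1.13), 0.52 ± 0.30 in Klf3-/- (-0.13 to 1.16) and 0.62 ± 0.28 in Klf8gt/gt arrays (0.02 to 1.21).

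Grb10, the inhibitory adaptor, was 11.55, 12.09, 12.29 and 12.43 in doubly mutant arrays, 11.83, 11.81 and 12.05 in Klf3-/-, 11.54, 12.17, 12.06 and 12.05 in Klf8gt/gt, and 11.43, 11.32, 11.54 and 11.90 in wild-type arrays. Doubly mutant replicates 2 to 4 lay above every wild-type array, and replicate 1 lay among them. The difference from wild type was 0.54 ± 0.18 in doubly mutant (0.15 to 0.93, adjusted p = 0.125 in limma), 0.35 ± 0.20 in Klf3-/- and 0.41 ± 0.18 in Klf8gt/gt arrays. Cdkn1c, the cell cycle inhibitor, had the smallest range over the 15 arrays among the members (0.67). It averaged 11.54 ± 0.28 in doubly mutant, 11.65 ± 0.13 in Klf3-/-, 11.54 ± 0.20 in Klf8gt/gt and 11.39 ± 0.14 in wild-type arrays.

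Peg3 was 10.88, 11.27, 11.80 and 11.04 in doubly mutant arrays, 10.69, 10.52 and 10.86 in Klf3-/-, 10.54, 11.26, 11.20 and 11.19 in Klf8gt/gt, and 10.58, 10.67, 10.68 and 11.09 in wild-type arrays. Plagl1 was 10.22, 10.58, 11.16 and 10.41 in doubly mutant arrays, 10.00, 9.97 and 10.14 in Klf3-/-, 9.87, 10.26, 10.49 and 10.37 in Klf8gt/gt, and 9.94, 9.95, 10.09 and 10.40 in wild-type arrays. For both zinc finger genes the doubly mutant arrays all lay above the Klf3-/- arrays, with doubly mutant replicate 3 highest of all 15. The difference of doubly mutant from Klf3-/- arrays was 0.56 ± 0.21 for Peg3 (0.11 to 1.0) and 0.56 ± 0.19 for Plagl1 (0.15 to 0.97), with adjusted p = 0.274 and 0.231 in limma. From wild type, doubly mutant arrays differed by 0.49 ± 0.19 for Peg3 and 0.50 ± 0.18 for Plagl1. Klf3-/- arrays differed from wild type by -0.07 ± 0.21 and -0.06 ± 0.19. The mesenchymal score moved with these 2 genes, at 8.63 ± 0.14 in doubly mutant, 8.25 ± 0.16 in Klf3-/-, 8.39 ± 0.08 in Klf8gt/gt and 8.35 ± 0.03 in wild-type arrays, and was highest on doubly mutant replicate 3 (8.82). With this score as a covariate the difference of doubly mutant from Klf3-/- arrays was -0.16 for Peg3 and -0.08 for Plagl1 (adjusted p = 0.999 each in limma), and that of doubly mutant from wild-type arrays was -0.04 and 0.03. In that model 0% of all clusters passed between doubly mutant and Klf3-/- arrays.

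Mest averaged 11.33 ± 0.48 in doubly mutant, 11.29 ± 0.20 in Klf3-/-, 11.29 ± 0.31 in Klf8gt/gt and 11.23 ± 0.33 in wild-type arrays. Its group means were the closest together among the 7 genes. The difference of doubly mutant from wild-type arrays was 0.10 ± 0.22, with an interval from -0.37 to 0.57.

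**Figure D1:**
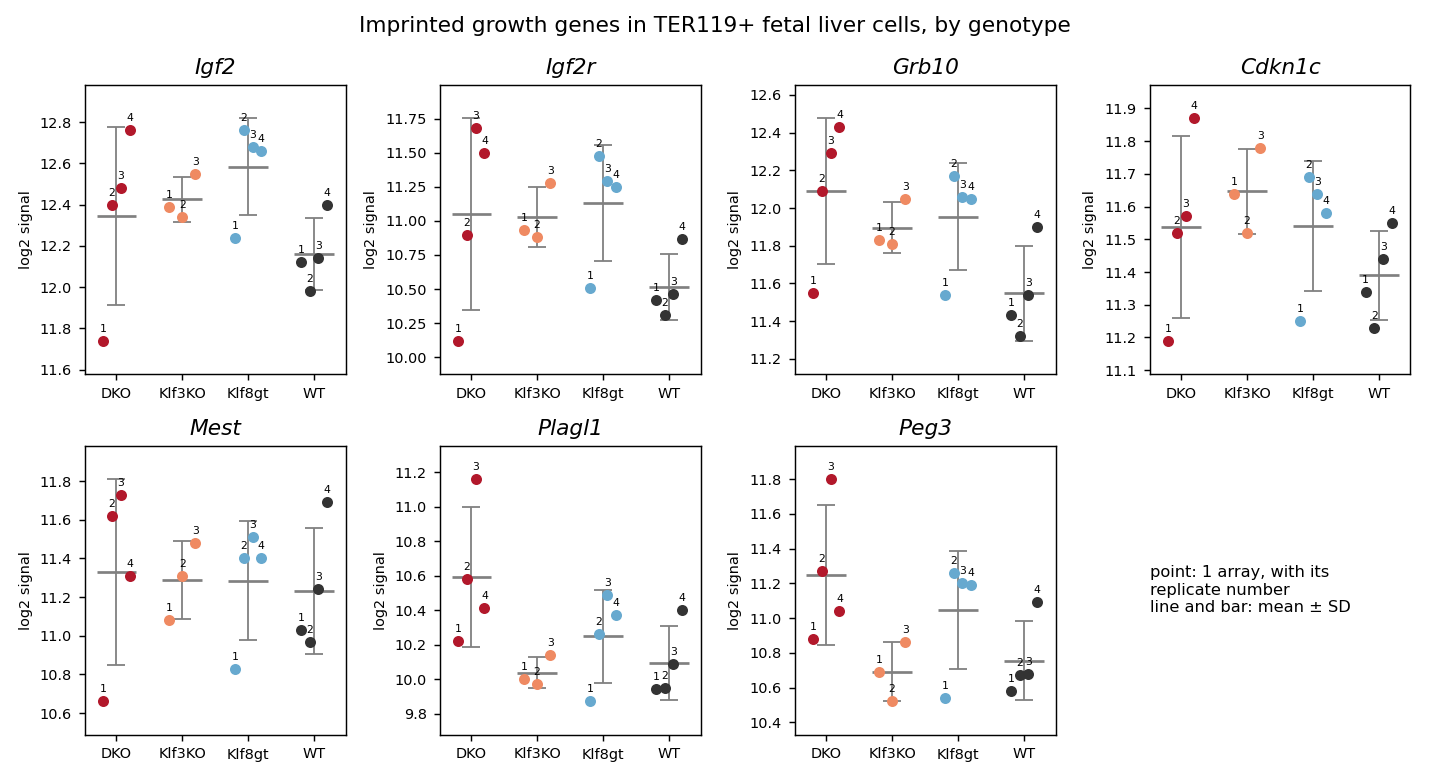
Log2 signal of each of the 7 genes (vertical axis) on each array, by genotype (horizontal axis, DKO, Klf3KO, Klf8gt and WT); points are arrays and bars the group mean with SD. The groups overlap for most genes, and doubly mutant replicate 1 is the lowest array for Igf2, Cdkn1c, Mest and Igf2r.

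Over the 7 genes, 0 passed an adjusted p of 0.05 in any of 6 comparisons. In all clusters tested, 3.30% passed between doubly mutant and wild-type arrays, 0.585% between Klf3-/- and wild type, and 0% between Klf8gt/gt and wild type. The share was 0.0470% for doubly mutant against Klf3-/-, 3.35% for doubly mutant against Klf8gt/gt, and 2.38% for both Klf3-/- groups averaged against both groups with intact Klf3. The lowest adjusted p among the members was 0.125, 0.701, 0.324, 0.231, 0.312 and 0.569 in those comparisons. At an unadjusted p under 0.05, 3 members passed between doubly mutant and wild-type arrays (Grb10, Plagl1 and Peg3) and 3 between Klf8gt/gt and wild type (Igf2, Igf2r and Grb10), against 17.9% and 13.4% of all clusters. The median member difference from wild type was 0.49 in doubly mutant, 0.26 in Klf3-/- and 0.29 in Klf8gt/gt arrays, where the medians over all clusters were -0.02, -0.01 and -0.02. Positive were 7, 5 and 7 of the 7 differences. These comparisons share the wild-type arrays, so they do not stand alone.

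Groups that did not overlap were seen for 1 member between Klf3-/- and wild type (Igf2r), where 14.5% of all clusters did the same, and for 2 between doubly mutant and Klf3-/- arrays (Peg3 and Plagl1), against 9.95%. The other comparisons had 0, against 8.40% (doubly mutant and wild type), 5.36% (Klf8gt/gt and wild type), 7.33% (doubly mutant and Klf8gt/gt) and 1.15% (the average over Klf3). Exact two-sided permutation of the arrays gave a lowest p of 0.0571 over 35 tests, 0.286 after adjustment, and the smallest p it can give is 0.0286 with 4 against 4 arrays and 0.0571 with 3 against 4. In the test of whether both losses together differ from the sum of each alone, Igf2 had the lowest adjusted p of the members (-0.51 ± 0.26, adjusted p = 0.375 in limma).

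**Figure D2:**
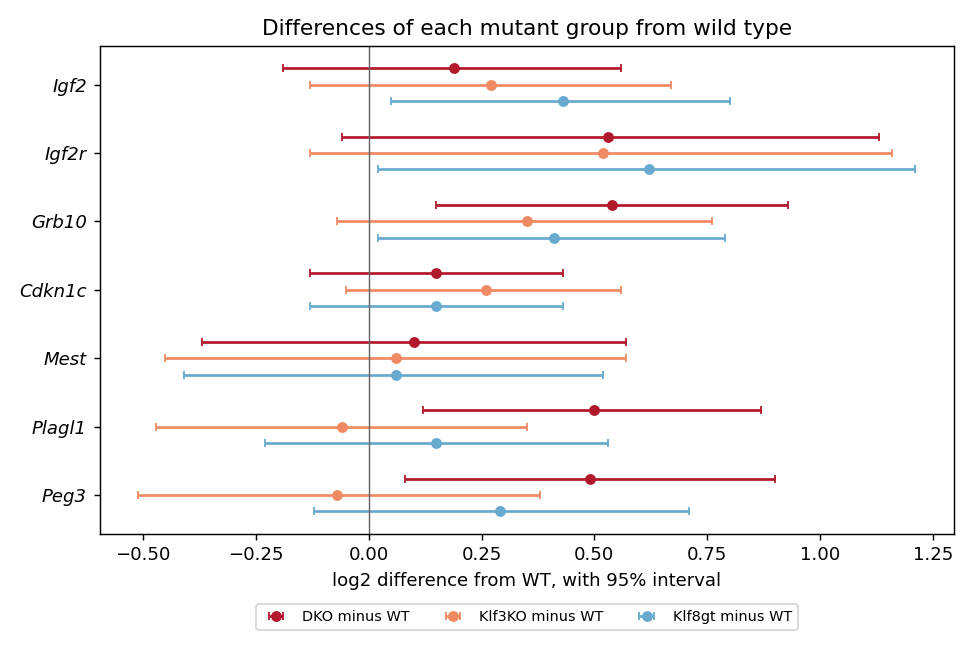
Log2 difference of each mutant group from wild type (horizontal axis, points, with 95% intervals as bars) for 7 genes. The intervals of Grb10, Plagl1 and Peg3 in doubly mutant arrays, and of Igf2, Igf2r and Grb10 in Klf8gt/gt arrays, lie above 0 without adjustment.

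The differences from wild type depended on the 2 arrays that stood apart. Both are mutant arrays, and each was the lowest of its group for every member. Leaving them out therefore raises these differences by construction. Wild-type replicate 4, the highest of its group for every member, was kept. Without both, 5 members passed as higher in doubly mutant arrays: Igf2 by 0.39, Grb10 by 0.72, Peg3 by 0.61, Plagl1 by 0.62 and Igf2r by 0.84 (adjusted p between 0.00334 and 0.041 in limma). In that fit 9.65% of all clusters passed. Igf2, Grb10 and Igf2r then passed in Klf8gt/gt arrays as well (0.54, 0.54 and 0.83), where 12.5% of clusters passed. Without doubly mutant replicate 1 alone, 2 members passed against wild type, Grb10 (0.72, adjusted p = 0.0147) and Igf2r (0.84, adjusted p = 0.0379). In that fit 5.93% of all clusters passed. The hepatocyte score was higher in Klf8gt/gt than in wild-type arrays, as given above, and with this score as a covariate the 7 differences of Klf8gt/gt from wild type lay between -0.46 and -0.02. In the same model Grb10 (0.50, adjusted p = 0.00164) and Igf2r (0.48, adjusted p = 0.0216) passed between doubly mutant and wild-type arrays, where 7.06% of all clusters passed. With the erythroid score as a covariate instead, an alternative added after seeing the data, the same differences were -0.06 for Grb10 (adjusted p = 0.866) and -0.45 for Igf2r (0.0162), so both changed sign with the score chosen. In that model 3.52% of all clusters passed.

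With all 15 arrays included, the members varied more between arrays of 1 genotype than most genes of like signal. These spreads were not computed without both arrays that stood apart. Doubly mutant replicate 1 was the lowest array for Igf2, Cdkn1c, Mest and Igf2r, and Klf8gt/gt replicate 1 for Plagl1. The doubly mutant group had the largest group SD for each member. Igf2r had a within-genotype SD of 0.46, above 97.8% of clusters whose mean lay within 0.5 of its own. The SD was 0.35 for Mest (95%), 0.31 for Peg3 (92.3%), 0.28 for Igf2 (92.5%), 0.29 for Grb10 (90.7%), 0.28 for Plagl1 (87.2%) and 0.20 for Cdkn1c (75.6%). From lowest to highest array the signal spanned 2.96-fold for Igf2r, 2.45-fold for Plagl1, 2.43-fold for Peg3, 2.15-fold for Grb10, 2.1-fold for Mest, 2.02-fold for Igf2 and 1.60-fold for Cdkn1c.

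This variation was shared between genes. Over deviations from genotype means on 15 arrays, all 21 pairs of members correlated positively, from 0.54 (Cdkn1c with Plagl1) to 0.97 (Igf2 with Grb10). By permutation within genotypes 17 of 21 passed after adjustment by Pearson r and 20 by Spearman rho. How many pairs of other genes would pass was not tested, so these counts are not shown to be particular to the members. Without the 2 arrays farthest out for each pair, r ran from 0.17 to 0.95. The arrays share depth and cell makeup, so these are not independent of the cell scores described next. Igf2 and Grb10 had r = 0.97 and rho = 0.99 (permutation p = 2e-05, adjusted 0.00014), and r = 0.95 without doubly mutant replicate 1 and Klf8gt/gt replicate 1. Igf2 and Igf2r had r = 0.93 and rho = 0.94 (permutation p = 0.00069, adjusted 0.00207), and 0.82 without the 2 arrays farthest out. Peg3 and Plagl1 had r = 0.95 and rho = 0.95 (permutation p = 0.00047, adjusted 0.00164), and 0.92 without the 2 arrays farthest out. Igf2 was less closely tied to Peg3 (r = 0.63, rho = 0.67, permutation p = 0.0776, adjusted 0.0906) and to Plagl1 (r = 0.61, rho = 0.64, permutation p = 0.129, adjusted 0.136). Those 2 values were 0.31 and 0.27 without the 2 arrays farthest out.

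**Figure D3:**
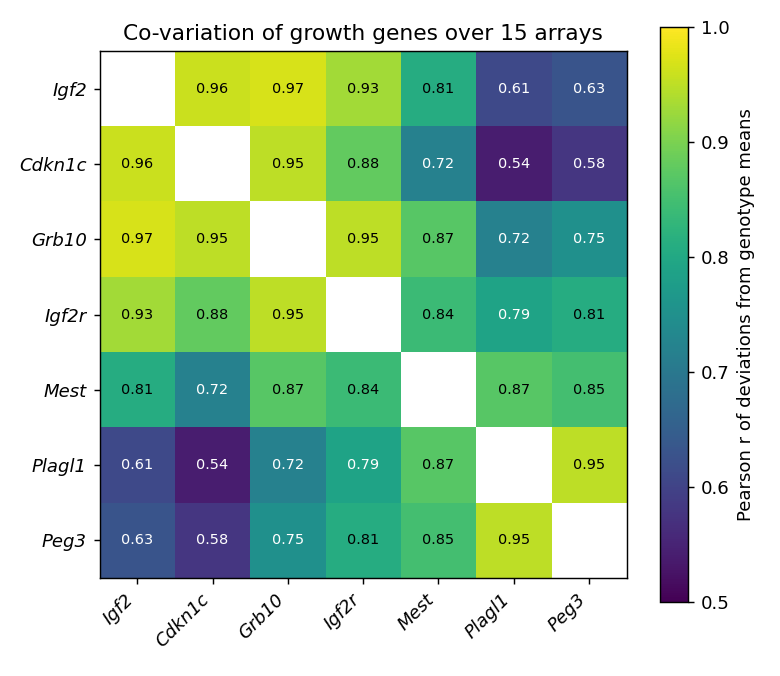
Pearson r between each pair of 7 genes over deviations from genotype means on 15 arrays (colour scale from 0.5 to 1). Igf2, Cdkn1c, Grb10 and Igf2r correlate at 0.88 to 0.97 with each other, Peg3 and Plagl1 at 0.95, and Igf2 with Peg3 or Plagl1 at 0.63 and 0.61.

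The next comparison asked which cell type's markers each gene followed from array to array within genotypes. In a model with 1 mean per genotype and the score as a covariate, all 7 members rose with the hepatocyte score, while 13.7% of all clusters had a called slope and 9.38% a positive one. Among the 12745 brighter clusters, which include all 7 members, 27.1% had a called slope. In log2 signal per log2 unit of score, the slope was 1.18 ± 0.14 (SE) for Igf2r (adjusted p = 5.38e-05 in limma), 0.74 ± 0.08 for Igf2 (4.84e-05), 0.75 ± 0.10 for Grb10 (0.000158) and 0.86 ± 0.14 for Mest (0.00114). It was 0.50 ± 0.09 for Cdkn1c (0.00222), 0.60 ± 0.17 for Peg3 (0.0307) and 0.53 ± 0.16 for Plagl1 (0.0412). The hepatocyte score per array was 10.64, 11.73, 11.81 and 11.86 in doubly mutant, 11.68, 11.64 and 11.92 in Klf3-/-, 11.64, 12.32, 12.16 and 12.16 in Klf8gt/gt, and 11.45, 11.24, 11.50 and 11.67 in wild-type arrays. Without both arrays that stood apart, 0 of 7 members and 0 of 23410 clusters passed, although the slopes of the members ran from 0.60 to 1.47. Leaving out doubly mutant replicate 1 alone ended the calls of Peg3 (adjusted p = 0.0564) and Plagl1 (0.143), and leaving out Klf8gt/gt replicate 1 did so too (0.123 and 0.139). The other 5 members passed in both of these fits. With the replicate number as a block, 3 of 7 passed, Igf2 (0.69), Grb10 (0.61) and Igf2r (1.04), among 1.52% of all clusters.

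**Figure D4:**
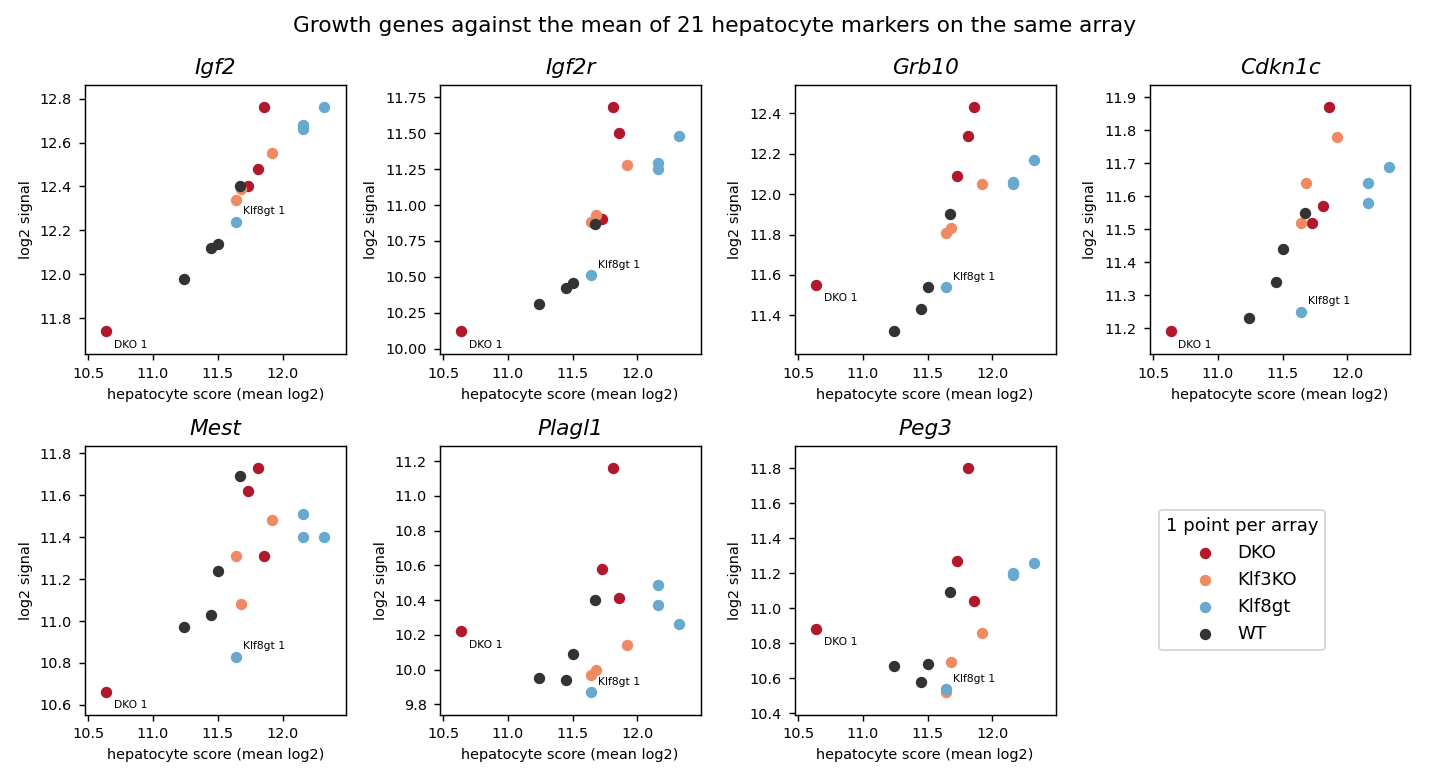
Log2 signal of each gene (vertical axis) against the hepatocyte score (horizontal axis, mean log2 signal of 21 markers), 1 point per array, coloured by genotype. The lowest score, 10.64, is doubly mutant replicate 1. The fitted slopes within genotypes are positive for each gene, but the points pooled over genotypes do not rise plainly in each panel. For Peg3 and Plagl1, doubly mutant replicate 1 lies above the Klf3-/- arrays, whose scores are higher.

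With the erythroid score (mean of 17 markers), all 7 members fell, and 17.0% of clusters had a called slope (34.0% of the brighter clusters), 10.7% a negative one. The slope was -2.74 ± 0.18 for Igf2r (adjusted p = 5.2e-06 in limma), -1.67 ± 0.19 for Grb10, -1.57 ± 0.21 for Igf2, -1.09 ± 0.20 for Cdkn1c, -1.78 ± 0.35 for Mest, -1.45 ± 0.34 for Peg3 and -1.28 ± 0.32 for Plagl1. The erythroid score itself averaged 11.99 ± 0.24 in doubly mutant (n = 4), 12.17 ± 0.12 in Klf3-/- (n = 3), 12.19 ± 0.15 in Klf8gt/gt (n = 4) and 12.35 ± 0.10 in wild-type arrays (n = 4). It ran against the hepatocyte score at r = -0.92 over the 15 arrays within genotypes. With both scores in 1 model 0 of 7 members passed on either. In that model 0.239% of clusters passed on the erythroid and 0.0854% on the hepatocyte score. Without both arrays that stood apart, Igf2r was the 1 member past the threshold (adjusted p = 0.0233), among 1.41% of clusters. With the replicate block it was again Igf2r alone (-2.71, adjusted p = 0.0147), among 0.931% of clusters.

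The endothelial score gave called positive slopes for 6 of 7 members, with 8.62% of clusters called (17.7% of the brighter clusters) and 6.12% positive. From the smallest p up, they were Mest (0.86 ± 0.10, adjusted p = 0.000403 in limma), Peg3 (0.68 ± 0.12), Plagl1 (0.62 ± 0.12), Grb10 (0.62 ± 0.12), Igf2r (0.90 ± 0.21) and Igf2 (0.52 ± 0.14). With the replicate block 0 of 7 passed, among 0.0641% of clusters. Cdkn1c did not pass (0.37 ± 0.11, adjusted p = 0.0587). This score correlated with the hepatocyte score at 0.76. Without both arrays that stood apart 1 member passed, Mest (0.81, adjusted p = 0.022 in limma), among 0.132% of clusters. On the embryonic globins, the globins of primitive red cells, 2 members passed, Mest (0.56 ± 0.12) and Grb10 (0.44 ± 0.11), against 2.90% of clusters. Without those 2 arrays 0 passed (0.00854% of clusters). Leaving out 1 array at a time gave between 0 and 7, the highest without wild-type replicate 1, where 12.3% of clusters passed. On the macrophage score 0 of 7 passed (0.978% of clusters), with adjusted p from 0.175 to 0.99 in limma. On the mesenchymal score 0 of 7 passed (0% of clusters). The largest slopes there were those of Peg3 (1.93 ± 0.60, adjusted p = 0.492 in limma) and Plagl1 (1.72 ± 0.56, 0.494).

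**Figure D5:**
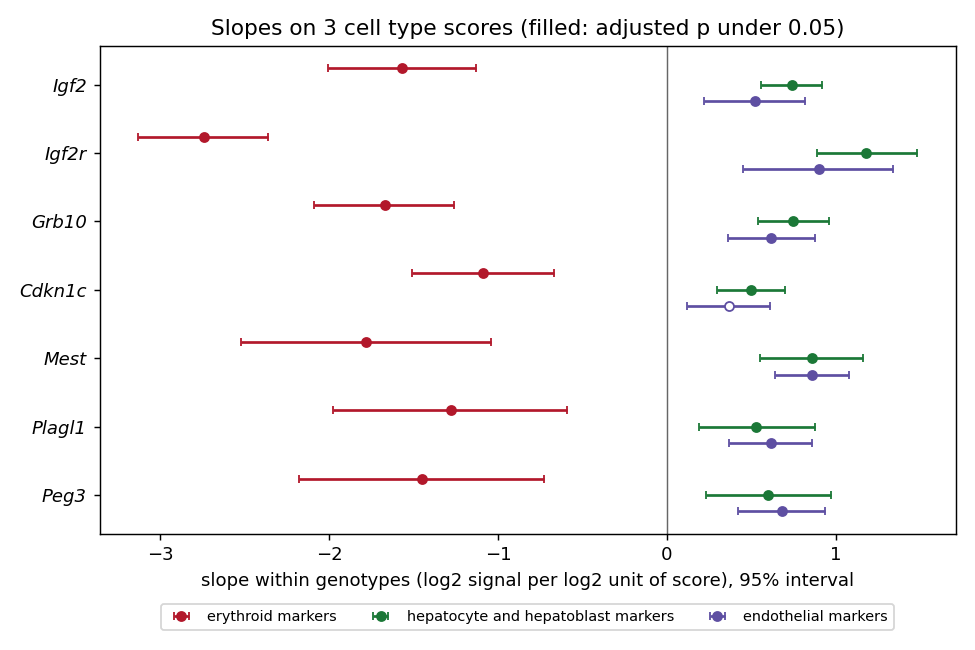
Slope of each gene on the hepatocyte, erythroid and endothelial scores (horizontal axis, log2 signal per log2 unit of score, points with 95% intervals); filled points passed an adjusted p of 0.05. All 7 slopes are positive on the hepatocyte score and negative on the erythroid score, and Cdkn1c is the open point on the endothelial score.

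The genes whose signal over the 15 arrays was most like each member, among 10538 named genes of at least medium signal, were given by a rule and carry no p. For Igf2 they were Nnt, Elovl6 and Fads2 (r = 0.98 each), for Igf2r Gpc3 and Ptprf (0.99 each) and Ly75 (0.98), and for Grb10 Gata6, Yap1 and Ephb4 (0.97 each). Cdkn1c was most like Mtap (0.97), Prom1 (0.96) and Ccnd1 (0.94). Peg3 was most like Tspyl2, Pard3 and Plcg1 (0.97 each), and Plagl1 like Tspyl2 (0.97), Map4k4 (0.96) and Ptprs (0.96). Mest was most like Adgrl4 (0.94), Oit3 (0.94) and Lyve1 (0.93), the last of which is in the endothelial marker list.

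Around the members, 108 of 123 listed genes of IGF signalling, cell cycle inhibition, the PLAG family, imprint maintenance and imprinting were measured. Between doubly mutant and wild-type arrays 2 rose and 2 fell, where 1.52% of all clusters rose and 1.78% fell. Between Klf3-/- and wild type 0 rose and 1 fell, where 0.521% rose and 0.0641% fell, and between Klf8gt/gt and wild type 0 passed. Pik3r1, the regulatory subunit of phosphoinositide 3-kinase, had signals of 8.72, 8.58, 8.56 and 8.50 in doubly mutant arrays, 9.36, 9.38 and 8.89 in Klf3-/-, and 10.11, 10.27, 10.40 and 9.96 in wild-type arrays. Klf8gt/gt arrays, at 10.40, 9.82, 9.76 and 10.08, overlapped wild type. The other groups did not overlap each other. Of all clusters, 8.40% did the same between doubly mutant and wild type and 14.5% between Klf3-/- and wild type. Between doubly mutant and Klf3-/- arrays 9.95% did. Pik3r1 fell by 1.60 ± 0.14 on the log2 scale in doubly mutant arrays, 3.03-fold (adjusted p = 1.14e-05 in limma), and by 0.98 ± 0.16 in Klf3-/- arrays (0.00576). It fell by 1.20 ± 0.11 in the Klf3 average, where Tet1 rose by 0.63 ± 0.10 (adjusted p = 4.48e-06 and 0.00248).

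Igfbp5, an IGF-binding protein, was 7.74, 7.67, 8.50 and 8.38 in doubly mutant arrays, against 7.09, 7.19, 7.07 and 7.33 in wild-type arrays. It rose by 0.90 ± 0.18, 1.87-fold (adjusted p = 0.0106 in limma). With the mesenchymal score as a covariate the difference was 0.57 (adjusted p = 0.79), with the erythroid score 0.47 (0.212), and in a fit to these 2 groups alone 0.90 (0.0535). Igf1, the gene of another IGF ligand, was 6.73, 7.15, 7.35 and 7.86 in doubly mutant arrays, against 8.01, 8.22, 8.31 and 8.13 in wild-type arrays. It fell by 0.90 ± 0.22, 1.86-fold (adjusted p = 0.0336). The macrophage score moved with Igf1, with means of 8.30 ± 0.69 for doubly mutant and 9.40 ± 0.14 for wild-type samples (SD, n = 4 each). Of the 15 macrophage markers 7 fell in doubly mutant arrays, where 1.78% of all clusters fell. With the macrophage score as a covariate the difference of Igf1 was -0.08 (adjusted p = 0.843). Leaving out 7 of the single arrays of these 2 groups in turn also ended the call, with adjusted p from 0.053 to 0.11. The cause of the Igf1 difference was not tested. Tet1, a DNA demethylation enzyme, was 7.71, 7.15, 7.30 and 7.09 in doubly mutant arrays and 6.20, 6.23, 6.22 and 6.51 in wild-type arrays, near the array medians. It rose by 1.02 ± 0.14 (adjusted p = 0.000569 in limma), and its call was lost with the macrophage (0.66, adjusted p = 0.079) or mesenchymal score (0.84, 0.133) as a covariate.

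Of 47 other imprinted genes measured among 58 listed, 0 passed between any mutant group and wild type. The median difference was 0.06 in doubly mutant arrays, 0.02 in Klf3-/- and 0.08 in Klf8gt/gt. On the hepatocyte score 15 had positive and 0 negative called slopes (31.9% of 47). Over all clusters 9.38% had a positive and 13.7% any called slope. Of the 47 genes 34 lay above the array medians, and 27.1% of the brighter clusters had a called slope. Examples chosen after their values were seen are the amino acid transporter Slc38a4 (1.34 ± 0.12, adjusted p = 6.88e-06 in limma), the growth-restraining placental gene Phlda2 (1.11 ± 0.13, 5.54e-05), the retrotransposon-derived Peg10 (1.06 ± 0.14, 0.000125), the noncoding RNA Rian (2.26 ± 0.26, 5.48e-05) and the membrane ligand Dlk1 (0.61 ± 0.14, 0.0104). In the IGF lists, Insr (1.02 ± 0.15), Igfbp4 (1.05 ± 0.12), Igf2bp1 (0.63 ± 0.12) and Igf2bp3 (0.63 ± 0.08) had positive slopes. All 9 of these lost their calls without both arrays that stood apart, where 0 clusters passed, with adjusted p from 0.146 to 0.503. On the erythroid score 17 of the 47 had negative and 2 positive slopes, Rasgrf1 and Ampd3. Of all clusters 10.7% had negative and 17.0% any called slopes, and of the brighter clusters 34.0% had any. Over all clusters 1.41% passed on that score without both arrays that stood apart and 0.931% with the replicate block.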

How the data were processed

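RNA of TER119-positive fetal liver cells was labelled with biotin and hybridised to 15 arrays, 1 per sample. The authors deposited log2 signals per transcript cluster, made with RMA and Partek per the submitters' processing notes, with versions not given. The array's genome build is not named in the sources used, so clusters carry no coordinates, and those of the start-site windows come from RefSeq on GRCm38.p6. Of 35556 clusters, 21789 had 1 symbol, 1621 several and 12146 none in the annotation of 2016. The 23410 with a symbol were tested.

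The log2 values were used as deposited. Each gene was represented by its own cluster. In limma 3.58.1 (R 4.3.3) a linear model of the 15 arrays estimated 1 mean for each genotype, followed by eBayes (prior 4.27 degrees of freedom), two-sided tests and Benjamini-Hochberg adjustment over the 23410 clusters of each contrast at 0.05. A marker score, the mean log2 signal of a list, was added as a covariate for slopes. The procedure was run on simulated data whose noise was drawn independently for each cluster and array. Such noise lacks the variation that genes of these arrays share, so the run cannot check the counts under that variation. The number of arrays limits precision, with a median SE of 0.11 (4 against 4) and 0.12 (3 against 4). Samples were grouped by the genotype in the labels. Members, lists and alternatives were chosen with earlier results of these data known. Named genes are the members, list genes past the threshold against wild type or in the Klf3 average, and the 3 genes most alike to each member. Genes named for their slopes were chosen afterwards. Replicate numbers were tested as pairs by correlating deviations of same-numbered arrays from group means. All correlations were above 0.1 between doubly mutant and Klf8gt/gt arrays only (0.114 to 0.534), which comes from the data and not the labels.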

Additional observations from a re-analysis of the deposited data

Results flagged for a closer look

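In 2 of 21 sets of 4 arrays of 1 gene and genotype, 1 array lay farther from the rest than Dixon's critical value for 4 samples allows, and chance flags about 1 in 20 such sets. Both were Klf8gt/gt replicate 1. Peg3 was 10.54 there, with the nearest of the other 3 arrays at 11.19 (ratio of gap to range 0.905). Mest was 10.83 there, with the nearest at 11.40 (ratio 0.833). Without both arrays that stood apart, Peg3 differed by 0.46 (adjusted p = 0.0719 in limma) and Mest by 0.21 (0.404) between Klf8gt/gt and wild-type arrays.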

How the results depend on the processing

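No member passed in the 6 genotype comparisons as fitted. Against wild type, Klf8gt/gt arrays had 4 members past the threshold with array weights (17.4% of all clusters passed) and 3 without both arrays that stood apart (12.5%). Doubly mutant arrays had 5 without both (9.65%), 2 with the hepatocyte score (7.06%) and 1 with the erythroid score as a covariate (3.52%). Both arrays left out were low mutant arrays, which by itself raises the differences from wild type. Against Klf3-/- and Klf8gt/gt arrays, the doubly mutant counts were 2 and 4 with the hepatocyte score, all higher (2.11% and 5.55% of all clusters passed), and 1 and 2 with the erythroid score, all lower (2.94% and 13%). The lower ones against Klf8gt/gt were Igf2 (-0.56) and Igf2r (-0.64). The Klf3 average had 2 higher with the hepatocyte score (5.10%) and 2 lower with the erythroid score (5.45%). Leaving out 1 array in turn gave 0 to 2 members between doubly mutant and wild-type arrays (1.63% to 5.93% of all clusters). It gave 0 in the other 5 comparisons (0% to 7.59%). With the replicate number as a block, 1 member passed between doubly mutant and wild-type arrays (Grb10, 0.54, adjusted p = 0.0329 in limma), among 4.21% of all clusters. In the other comparisons 0 passed (0% to 4.03%). The replicate numbers did not pair doubly mutant with wild-type arrays (correlations -0.143 to 0.07). The erythroid covariate, added after seeing the data, turned Igf2r to -0.45 (doubly mutant minus wild type), -0.47 (minus Klf3-/-) and -0.31 (Klf3 average) and Igf2 to -0.29 (Klf3 average), and the hepatocyte covariate turned Igf2r to 0.58 (doubly mutant minus Klf8gt/gt). The cause was not tested.

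Slope counts fell to 0 on the hepatocyte, erythroid, endothelial and embryonic globin scores when the most correlated other score was added. In those fits 0.0854%, 0.239%, 0.00427% and 0.00427% of all clusters passed. Peg3 (-0.09), Plagl1 (-0.07), Dlk1 (-0.45) and Igf2bp1 (-0.24) on the hepatocyte score and Mest on the globins (-0.13) turned negative. With the replicate block the counts were 3, 1, 0 and 0 in that order, among 1.52%, 0.931%, 0.0641% and 0% of all clusters. Without both arrays that stood apart, also added after seeing the data, they were 0, 1, 1 and 0, among 0%, 1.41%, 0.132% and 0.00854%. With the score's median the erythroid count was 4 (12.1% of all clusters) and the globin count 1 (1.65%). Without the 2 arrays farthest in score the endothelial count was 1 (0.103%) and the globin count 0 (0.0598%). Leaving out 1 array gave 5 to 7 on the hepatocyte (6.84% to 17.1% of all clusters) and erythroid scores (7.70% to 18.1%). It gave 1 to 7 on the endothelial score (0.760% to 13.4%), with 1 without Klf8gt/gt replicate 1. On the globins it gave 0 to 7 (0.0128% to 12.3%), and 0 on the macrophage (0.137% to 2.07%) and mesenchymal scores (0% to 0.0128%). Counts over all clusters between doubly mutant and wild-type arrays ran from 114 to 2260, against 772 as fitted, and between Klf8gt/gt and wild type up to 4081 with array weights, against 0. The Klf3 average was not run on 2 groups alone. Quantile scaling or centring moved the median of all clusters by at most 0.03.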

Other observations

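On the hepatocyte score, 2 of 5 measured cyclin-dependent kinase inhibitors other than Cdkn1c had called slopes, both negative, where Cdkn1c itself had a positive one (0.50 ± 0.09). Over all clusters 13.7% had a called slope and 9.38% a positive one, but 0 of 23410 clusters passed on this score without both arrays that stood apart, and Cdkn1c did not pass with the replicate block (adjusted p = 0.18 in limma). They were Cdkn2c (-0.61 ± 0.17) and Cdkn2d (-0.73 ± 0.15), inhibitors of the INK4 group, named after their values were seen. On the erythroid score 3 of the 5 had positive slopes, Cdkn1b, Cdkn2c and Cdkn2d, where 17.0% of all clusters had a called slope, 1.41% without both arrays that stood apart and 0.239% with the hepatocyte score added. Among 18 imprint maintenance factors, 5 had positive hepatocyte slopes (Dnmt3a, Zfp445, Trim28, Tet2 and Ehmt2) and 1 a negative one (Ctcf), beside the same 13.7% of all clusters and the same loss of every call without both arrays. In the PLAG list 0 of 6 had a called hepatocyte slope.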
